A study of Homo sapiens with 22 samples.

Results

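Solute carriers are the large group of membrane proteins, named SLC and numbered by family, that move amino acids, sugars, ions, nucleotides, metals and vitamins across the plasma membrane and the membranes of organelles. Most are secondary transporters or facilitators. They use the sodium, proton or potassium gradients set up by ATP-driven pumps, or they let a solute run down its own gradient. Tumour cells depend on several of them for glutamine, essential amino acids, glucose and lactate export, and the SLC25 family carries metabolites across the inner mitochondrial membrane. The members described here are the 137 probes, for 128 genes, whose single gene symbol in the platform annotation starts with SLC and a digit, out of 14257 probes and 7302 named genes in the series. RefSeq lists 386 protein-coding genes with such a symbol, and 124 of them are among the members. The other 4 members are antisense or divergent transcripts.

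The cells were 2 human tumour lines grown in RPMI medium with serum. Mia-PaCa-2 derives from a carcinoma of the pancreas, and SK-MEL-28 is a melanoma line. Each line was either left untreated or incubated for 4 h with 1 µM Amblyomin-X, a recombinant Kunitz-type inhibitor derived from a tick. RNA was hybridized to 1-colour CodeLink arrays, with 6 arrays for each condition of Mia-PaCa-2 and 5 for each condition of SK-MEL-28. Each line is a single established line. The design text says that the hybridized targets were prepared independently but not that they came from separate cultures, so p-values measure the spread between these arrays, which may be technical. An array of a whole culture cannot tell fewer expressing cells from less RNA per cell. All levels below are log2 of the normalized intensity deposited by the authors. All changes are treated minus untreated on that scale, given ± SE from limma, and the level of a group is the mean ± SD over its arrays. Because each probe binds with its own strength, the level of one probe says nothing about the level of another.

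Of the members, 110 probes (106 genes) had values in Mia-PaCa-2 and 67 probes (66 genes) in SK-MEL-28, and 40 probes were measured in both. Every one of these was tested, and 109 of 110 and 66 of 67 had a value on every array. The fixed set of well-known carriers held 23 genes, of which 10 were measured. The plasma membrane glucose carrier SLC2A1, the glutamine carrier SLC1A5, the leucine exchanger SLC7A5, the cystine exchanger SLC7A11 and the lactate carriers SLC16A1 and SLC16A3 were not analysed here. Of the markers fixed to check the line labels, the epithelial keratins KRT8, KRT18 and KRT19 and the mucin MUC1 were measured in Mia-PaCa-2, with a mean of 13.5 for one KRT18 probe over the 10 arrays that did not stand apart. In SK-MEL-28, none of the 16 melanoma markers had a value, so that label was not checked. The pigment cell carrier SLC45A2 had values in Mia-PaCa-2 only, at 7.24 ± 0.28 (SD, n = 6) untreated, beside 1 other melanoma marker measured in that line, RAB27A.

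In each line a pair of arrays stood apart from the rest, and the pairs resembled each other. In Mia-PaCa-2 the pair was untreated arrays 4 and 5, and in SK-MEL-28 it was treated arrays 3 and 5. Over the 40 member probes measured in both lines, these 4 arrays correlated across lines with r of 0.866 to 0.960. For the remaining arrays r across lines was 0.203 to 0.620. The Mia-PaCa-2 pair correlated with the other Mia-PaCa-2 arrays at 0.524 to 0.817. The resemblance was not particular to the members. Over 5195 probes of all kinds the 4 arrays correlated across lines at 0.864 to 0.962, and the remaining arrays at 0.357 to 0.471. There the Mia-PaCa-2 pair correlated with the rest of its line at 0.738 to 0.838. The correlations run over probes and describe the arrays only. Of the 8 marker probes measured in Mia-PaCa-2, 7 had a lower mean on the pair than on the other arrays, from 5.89 against 6.12 for COL1A1 to 7.13 against 8.28 for RAB27A, with 6.51 against 7.48 for KRT19 and 13.1 against 13.5 for one KRT18 probe. MUC1 alone was higher, at 7.42 against 6.52. In SK-MEL-28 the pair also read higher for MUC1, at 7.70 against 6.62, while the other 3 marker probes (COL1A1, PDGFRB and CD68) had means of 5.82 to 5.95 on the pair and 5.85 to 5.98 elsewhere. The part of these shifts in the results was not tested. Of 110 member probes, 9 had both arrays of the Mia-PaCa-2 pair above the other 10 arrays and 23 had both below them. Of all 11604 probes 2393 had them above and 1885 below, 36.9% together. Of 67 member probes, 12 had both arrays of the SK-MEL-28 pair above the other 8 and 7 had both below. Of all 7973 probes 775 had them above and 1005 below, 22.3% together. One pair is thus untreated and the other treated. Changes are therefore given with and without the pair of their line, and a value in parentheses directly after a change is that change without the pair. The arrays were kept under the groups their titles give. Leaving out 1 array turned the sign of the change for 39 of 110 member probes in Mia-PaCa-2 and 24 of 67 in SK-MEL-28, and where 1 array that stood far from its group turned a sign, that is said beside the value.

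No solute carrier passed the test in Mia-PaCa-2. By limma 0 of 110 member probes had an adjusted p under 0.05, as for 0% of the 11604 probes tested, and the smallest adjusted p among the members was 0.501. An unadjusted p under 0.05 was reached by 10 member probes, 5 higher and 5 lower in treated cells, beside 9.59% of all probes. Treated and untreated arrays separated for 0 of the 110, beside 0.543% of all probes, which is near that share. Without untreated arrays 4 and 5 the unadjusted count was 6, beside 5.48% of all probes, and with the replicate number as a block it was 13, beside 10.4%. It was 6 without untreated array 4 alone, 4 without untreated array 5, 16 without untreated array 1 or 6, 6 without treated array 1 and 5 without treated array 6. The shares over all probes without these single arrays are not given here, so these counts are no result about the carriers. Of the 110 changes 65 were above 0 (51.2% of all probes), with a median of 0.070 over the members and 0.012 over all probes. Without untreated arrays 4 and 5, 53 were above 0 (50.6% of all probes) and the member median was -0.013. The sign stayed the same for 86 of 110, beside 8453 of 11604 over all probes. The 6 with an unadjusted p under 0.05 then were SLC43A1, SLC25A39, SLC30A1, SLC35A1, SLC2A10 and SLC45A3, and none passed after adjustment.

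**Figure D1:**
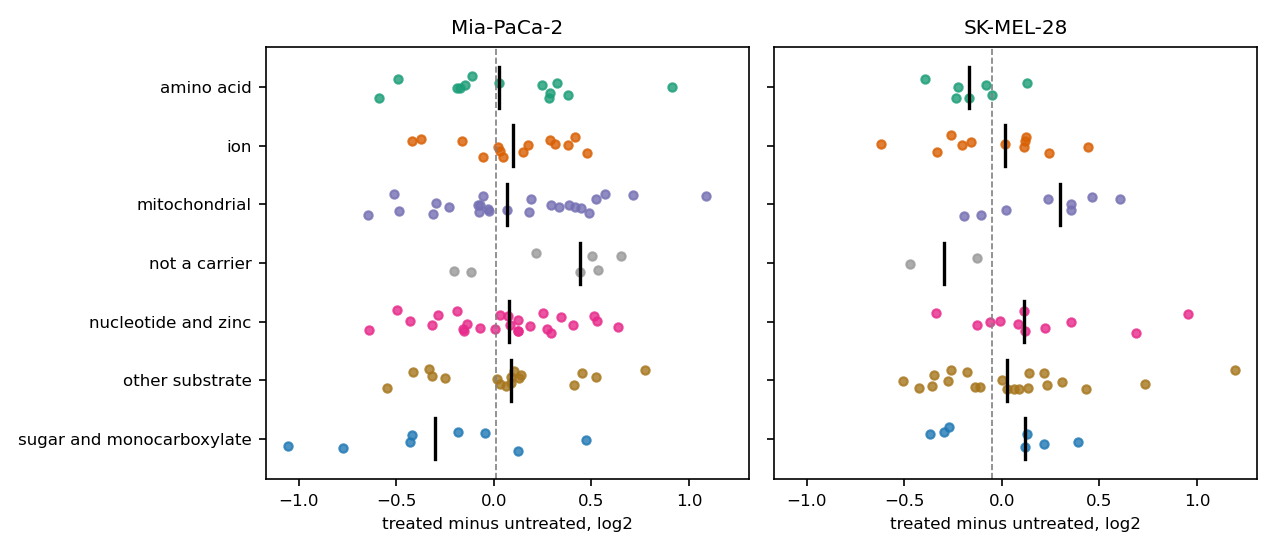
Treated minus untreated change (log2, horizontal axis) of every solute carrier probe by substrate group, with Mia-PaCa-2 in the first panel and SK-MEL-28 in the second. Each point is 1 probe, the black bar is the group median and the dashed line is the median of all probes tested. The sugar and monocarboxylate group has its median at -0.30 over 8 probes in the first and at 0.12 over 7 probes in the second. Without the arrays that stood apart these medians were -0.36 and -0.050. The lines hold partly different probes, so the medians do not compare the same carriers. No probe passed the test in either line.

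The sugar and monocarboxylate carriers were the group with the lowest median in Mia-PaCa-2. Changes were negative for 6 of 8 probes, and the median of the 8 was -0.30 (-0.36 without untreated arrays 4 and 5, with 7 of 8 negative), and 3 had an unadjusted p under 0.05, all lower in treated cells, beside 9.59% of all probes in either direction and 4.4% lower. None passed over all probes. SLC2A10 (GLUT10), a facilitative carrier of the glucose carrier family, stood at 6.39, 5.82, 5.77, 5.83, 5.14 and 6.18 on untreated arrays 1 to 6 and at 4.31, 5.74, 5.82, 4.95, 5.42 and 4.25 on treated arrays 1 to 6. The 3 lowest treated arrays lay below every untreated array and the other 3 lay within the untreated range. Its change was -0.77 ± 0.30 (limma, adjusted p = 0.501, unadjusted 0.0213), and -0.96 ± 0.32 without untreated arrays 4 and 5. SLC45A3, a proton-linked sugar carrier best known from prostate, stood at 8.46, 8.16, 8.23, 8.50, 8.05 and 8.38 untreated and at 7.79, 8.28, 7.76, 7.90, 7.49 and 7.999 treated. Only treated array 2 reached into the untreated range. The change of SLC45A3 was -0.43 ± 0.18 (adjusted p = 0.501) and -0.44 ± 0.17 without the pair. Taken against each probe's own mean, the median of the 8 probes lay between -0.28 and -0.12 on the treated arrays. On the untreated arrays it lay between 0.03 and 0.24, except on array 5, where it was -0.31.

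SLC5A1 (SGLT1), the sodium-glucose cotransporter that takes up glucose against its gradient, had the most negative change of the Mia-PaCa-2 members with all arrays, and 2 untreated arrays stood far above the rest. It stood at 5.74, 5.97, 6.38, 8.18, 8.46 and 5.95 on untreated arrays 1 to 6 and at 5.68, 5.68, 5.86, 5.21, 6.06 and 5.88 on treated arrays. Untreated arrays 4 and 5 lay above all others, and the other untreated arrays overlapped the treated ones. The change of SLC5A1 was -1.05 ± 0.43 (limma, adjusted p = 0.501), but -0.28 ± 0.19 without that pair. None of the other sugar carriers had an unadjusted p under 0.05. SLC50A1, a sugar facilitator of the SWEET family, had 7.57 ± 0.82 untreated and 7.15 ± 0.44 treated, a change of -0.42 ± 0.34, and -0.50 without the pair. The change was -0.18 (-0.44) for SLC16A5, a monocarboxylate carrier, -0.047 (-0.11) for the proton-myo-inositol carrier SLC2A13, 0.13 for SLC45A2 (-0.00075 without untreated arrays 4 and 5) and 0.47 ± 0.53 (0.31) for SLC45A1. There treated array 4 read 9.72 against 5.66 to 6.20 on the other treated arrays, and the change was -0.15 without it.

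**Figure D2:**
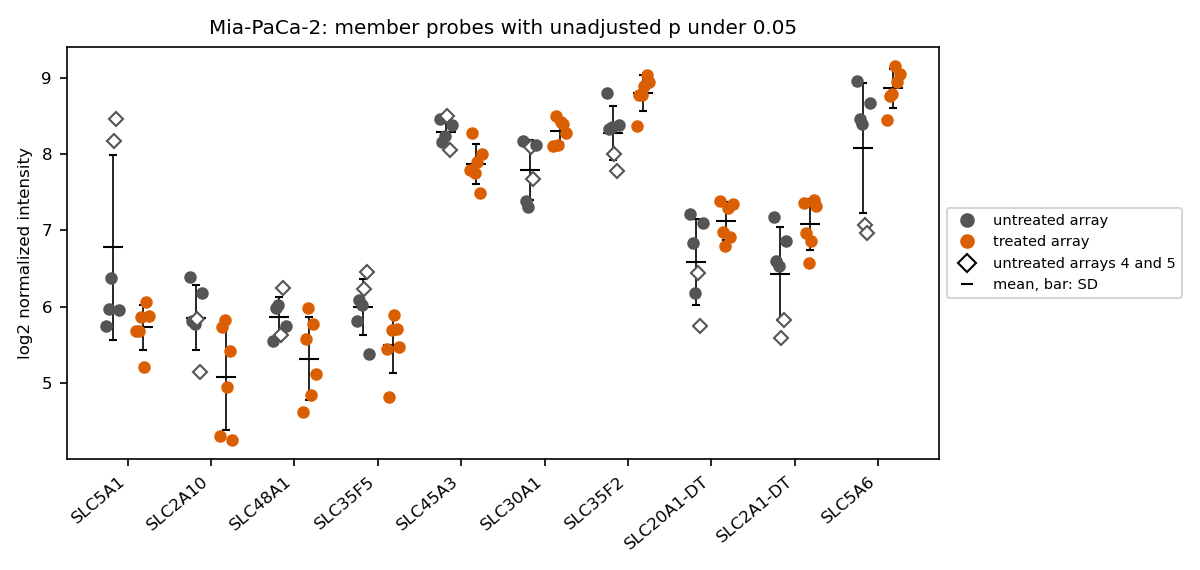
Log2 normalized intensity on every Mia-PaCa-2 array for the 10 member probes with an unadjusted p under 0.05, ordered from the most negative to the most positive change. Grey points are untreated and orange points treated arrays, open diamonds are untreated arrays 4 and 5, and bars are the mean ± SD. The diamonds lie above all other points for SLC5A1 and below them for SLC5A6, and the 2 groups overlap for all 10.

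Among the nucleotide, nucleotide sugar and zinc carriers, 3 of 26 probes had an unadjusted p under 0.05 in Mia-PaCa-2, 2 higher and 1 lower in treated cells, beside 9.59% of all probes, and none passed over all probes. Without untreated arrays 4 and 5 there were 2, beside 5.48%. The group's median change was 0.079 with 16 of 26 positive, and -0.074 with 10 of 26 positive without untreated arrays 4 and 5. SLC30A1 (ZnT1), which exports zinc from the cytosol, stood at 8.18, 7.39, 7.30, 8.09, 7.68 and 8.12 untreated and at 8.11, 8.50, 8.12, 8.43, 8.39 and 8.28 treated. Untreated arrays 1 and 6 reached into the treated range and the other 4 lay below it. Its change of 0.51 ± 0.20 (limma, adjusted p = 0.501, unadjusted 0.0198) was 0.56 ± 0.20 without the pair. SLC35F2, known in human cells for importing the drug YM155, stood at 8.80, 8.34, 8.35, 8.001, 7.77 and 8.39 untreated and at 8.37, 8.78, 8.77, 8.90, 9.04 and 8.95 treated. Its lowest untreated arrays were 4 and 5, and the change of 0.53 ± 0.20 was 0.33 ± 0.17 without them. SLC35F5, of the same family, stood at 5.81, 6.08, 6.02, 6.23, 6.46 and 5.38 untreated and at 5.44, 4.81, 5.70, 5.89, 5.71 and 5.47 treated. Those arrays were its 2 highest, and its change of -0.49 ± 0.22 was -0.32 without them.

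SLC30A1 was the nucleotide and zinc member with the most positive change without untreated arrays 4 and 5, and its promoter is shown because zinc-responsive transcription of the gene is known to run through metal response elements bound by MTF1. The window covers 250 bases before to 50 bases after the annotated start, at chr1:211579112-211579411 on the minus strand of GRCh38.p14, from RefSeq.
SLC30A1 promoter: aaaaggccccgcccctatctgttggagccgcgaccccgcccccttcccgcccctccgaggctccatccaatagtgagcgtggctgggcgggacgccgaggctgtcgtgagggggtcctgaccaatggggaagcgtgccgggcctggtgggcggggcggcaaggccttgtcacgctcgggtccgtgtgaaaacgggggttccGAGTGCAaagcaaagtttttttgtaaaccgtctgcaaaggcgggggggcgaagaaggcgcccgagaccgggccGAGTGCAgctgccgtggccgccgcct
Capitals mark the 2 matches to the core letters TGCACNC or TGCGCNC, searched on both strands. Both lie on the opposite strand, the first at position -49 relative to the start and the second at position 25. Of 35116 promoter windows of the same length, 29.6% held at least 1 match and 8.60% at least 2. A match of letters is a description of the sequence and not a measured site. The MTF1 transcript had -0.28 ± 0.25 in Mia-PaCa-2 (0.089 without untreated arrays 4 and 5) and 0.045 ± 0.17 (0.22) in the melanoma line, neither past the test, and the arrays carry no measure of binding.

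The other zinc carriers had smaller or less even values in Mia-PaCa-2. SLC39A14 (ZIP14), an importer of zinc, iron and manganese, stood at 5.60, 6.23, 6.31, 5.76, 6.17 and 5.24 untreated and at 3.10, 5.80, 5.60, 6.17, 5.10 and 5.68 treated. One treated array was far below the rest, and the change of -0.64 ± 0.41 was -0.21 without it. Without untreated arrays 4 and 5 it was -0.60. The changes were -0.16 (-0.37) for SLC39A10, -0.15 (-0.17) for SLC39A9 and 0.12 (0.32) for SLC39A6, all importers of the ZIP family. They were 0.27 (0.13) for SLC30A7, 0.12 (-0.20) for SLC30A5 and 0.074 (0.054) for SLC30A2, which load zinc into organelles and vesicles. Among nucleoside carriers, the lysosomal SLC29A3 (ENT3) had 5.71 ± 0.56 untreated and 6.12 ± 0.16 treated, a change of 0.41 ± 0.24 (0.36 without untreated arrays 4 and 5), and SLC29A4, which also carries monoamines, had -0.14 ± 0.22 (-0.26). SLC17A9, the vesicular nucleotide carrier, had probes that disagreed. One had 8.45 ± 1.03 untreated and 9.08 ± 0.32 treated, a change of 0.63 ± 0.38, with untreated arrays 4 and 5 lowest at 7.75 and 6.85, and 0.059 without them. The other had 7.70 ± 0.24 untreated and 7.41 ± 0.37 treated, a change of -0.29 ± 0.20, and -0.17 without them.

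The nucleotide sugar carriers of the SLC35 family, which feed glycosylation in the endoplasmic reticulum and Golgi, had values of both signs. SLC35B1, an ATP/ADP exchanger of the endoplasmic reticulum, had 6.62 ± 0.55 untreated and 6.63 ± 0.43 treated, a change of 0.0064 ± 0.27 and -0.28 without untreated arrays 4 and 5. SLC35A1, which carries CMP-sialic acid, had -0.070 and -0.37 without them. SLC35A2, which carries UDP-galactose, had 0.19 (-0.10), the carriers of activated sulphate SLC35B2 and SLC35B3 had -0.43 (-0.35) and 0.25 (-0.008), and the GDP-fucose carrier SLC35C1 had 0.13 (0.25). The remaining members were SLC35H1 at 0.34 (0.10), SLC35A4 at 0.29 (-0.022), SLC35E1 at -0.32 (-0.46), SLC35B4 at -0.19 (-0.29), SLC35D3 at 0.085 (-0.045) and SLC35G2 at 0.033 (0.088). For SLC35B2 treated array 6 read 2.48 against 5.44 to 6.47 on the other treated arrays, and the change was 0.16 without it.

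No amino acid carrier had an unadjusted p under 0.05 in Mia-PaCa-2. Of 13 probes 7 were positive, with a median of 0.027 (0.039 without untreated arrays 4 and 5, with 1 unadjusted p under 0.05, that of SLC43A1). SLC3A2 (4F2hc), the heavy chain that takes the exchangers of large neutral amino acids and cystine to the cell surface, stood at 7.35, 7.55, 8.04, 8.87, 9.51 and 7.32 untreated and at 7.31, 7.44, 7.89, 7.48, 7.96 and 7.62 treated. Only untreated arrays 4 and 5 lay above the other 10, which overlapped. Its change was -0.49 ± 0.34 (limma, adjusted p = 0.546) and 0.051 ± 0.19 without the pair. SLC6A20, a carrier of proline and other imino acids, had 6.33 ± 1.12 untreated and 5.74 ± 0.31 treated, a change of -0.59 ± 0.41, and 0.12 without the pair, at 7.64 to 7.87 on it and 5.24 to 6.26 on the other 10 arrays. SLC43A1 (LAT3), a facilitator of large neutral amino acids, had 4.83 ± 1.16 untreated and 5.74 ± 0.69 treated, a change of 0.91 ± 0.46 and 1.23 without the pair. Untreated array 3 read 2.48 against 5.04 to 5.65 on the other untreated arrays. Without that array, and with the pair kept, the change was 0.44.

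SLC36A4, a proton-independent carrier of proline and tryptophan, had 7.02 ± 0.32 untreated and 7.30 ± 0.19 treated, a change of 0.28 ± 0.19 (0.13). SLC38A1 (SNAT1), a sodium-coupled importer of glutamine, was read by 2 probes. One had 7.10 ± 0.45 untreated and 6.93 ± 1.02 treated, a change of -0.17 ± 0.39 (-0.42), and the other had 5.55 ± 0.50 untreated and 5.36 ± 0.52 treated, a change of -0.19 ± 0.27 (-0.20). On the second, treated array 1 read 4.34 against 5.33 to 5.73, and the change was 0.012 without it. On the first probe treated array 4 read 8.82 against 5.80 to 7.09 on the other treated arrays, and without it the change was -0.55. SLC7A6, an exchanger of cationic for neutral amino acids that pairs with SLC3A2, had 0.32 (0.039). The changes were 0.25 (-0.027) for SLC38A10, 0.38 (-0.16) for SLC38A12, -0.15 (-0.045) for the taurine carrier SLC6A6, -0.11 (-0.13) for the lysosomal histidine and peptide carrier SLC15A4, 0.29 (0.39) for the glutamate carrier SLC1A7 and 0.027 (0.12) for the broad amino acid importer SLC6A14. For SLC1A7 treated array 4 read 9.25 against 5.27 to 5.84 on the other treated arrays, and the change was -0.36 without it. For SLC38A12 untreated array 4 read 3.57 against 5.44 to 6.42 on the other untreated arrays, and the change was -0.025 without it.

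The ion carriers had no unadjusted p under 0.05 either, and 10 of 14 had a positive change, the median being 0.10 (0.044 with 9 of 14 positive without untreated arrays 4 and 5). SLC20A2 (PiT2), a sodium-phosphate cotransporter, stood at 6.15, 6.21, 6.85, 5.42, 5.84 and 6.70 untreated and at 6.70, 6.36, 6.51, 6.73, 6.98 and 6.75 treated. Untreated arrays 4 and 5 were its lowest, and the change of 0.48 ± 0.23 was 0.19 without them. SLC4A5, a sodium-bicarbonate cotransporter, had 7.35 ± 0.47 untreated and 6.93 ± 0.16 treated, a change of -0.42 ± 0.21 and -0.13, with the same pair its highest at 7.88 to 8.01 against 6.75 to 7.21. SLC12A2 (NKCC1), the sodium-potassium-chloride cotransporter of cell volume control, had 6.18 ± 0.52 untreated and 6.56 ± 0.41 treated, a change of 0.38 ± 0.26 and 0.20. SLC8B1, the mitochondrial sodium-calcium exchanger, had 5.63 ± 0.80 untreated and 6.05 ± 0.40 treated, a change of 0.42 ± 0.32 and 0.047.

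The remaining ion carriers were SLC26A6 at 0.31 (0.021) and SLC26A2 at -0.054 (-0.41), which exchange anions such as oxalate and sulphate, and SLC8A3 at -0.37 (-0.46), a plasma membrane sodium-calcium exchanger. SLC4A4, a sodium-bicarbonate cotransporter, had 0.29 (0.43), and SLC4A9 of the same family had -0.17 (-0.017). The magnesium carrier SLC41A1 had 0.15 (0.043) and the potassium-chloride cotransporter SLC12A7 0.17 (-0.22). The iodide carrier SLC5A5 had 0.045 (0.25), the copper carrier family member SLC31A2 0.030 (0.045) and the sodium-proton exchanger SLC9A8 0.022 (0.25). SLC5A5 had -0.085 without treated array 5, which read 6.77 against 5.87 to 6.13 on the other treated arrays.

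The mitochondrial SLC25 carriers, the group with the most genes in Mia-PaCa-2 after the nucleotide and zinc carriers, were evenly split. Of 25 probes for 23 genes 13 were positive and 12 negative, none had an unadjusted p under 0.05 (1 without untreated arrays 4 and 5, that of SLC25A39), and the median was 0.066, or -0.071 without untreated arrays 4 and 5. SLC25A5 (ANT2), the adenine nucleotide carrier of dividing cells that exchanges matrix ATP for cytosolic ADP, stood at 12.001, 11.39, 11.07, 11.77, 11.35 and 11.30 untreated and at 11.37, 12.05, 12.001, 12.28, 11.32 and 11.87 treated, with the groups overlapping. Its change was 0.34 ± 0.22 (limma, adjusted p = 0.533), and 0.37 without the pair. SLC25A3, which brings phosphate into the matrix for ATP synthesis, had 10.82 ± 0.40 untreated and 10.80 ± 0.38 treated, a change of -0.028 ± 0.23 (-0.053), by one probe. The other probe had 8.34 ± 0.77 untreated and 7.69 ± 0.45 treated, a change of -0.64 ± 0.33, but -0.16 without untreated arrays 4 and 5, which read 9.30 and 9.32 on it against 6.85 to 8.11 on the other 10 arrays.

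SLC25A37 (mitoferrin 1), which imports iron, had 7.90 ± 0.34 untreated and 8.29 ± 0.28 treated, a change of 0.38 ± 0.20, by one probe (0.22 without the pair). By the other it had 7.62 ± 0.53 untreated and 8.15 ± 0.34 treated, a change of 0.53 ± 0.25 (0.19 without the pair). Mitoferrin 2, SLC25A28, had -0.30 (-0.19). SLC25A51, which imports NAD, had 5.56 ± 1.58 untreated and 6.65 ± 0.22 treated, a change of 1.09 ± 0.54 (1.15), the most positive change of the Mia-PaCa-2 members with all arrays. Without the pair that of SLC43A1, at 1.23, was higher, with its low untreated array 3 kept in. On the SLC25A51 probe untreated array 2 read 2.48 against 5.65 to 6.85 on the other untreated arrays, and its change was 0.47 without that array. SLC25A12, an aspartate-glutamate carrier of the malate-aspartate shuttle, had 5.36 ± 0.84 untreated and 6.08 ± 0.66 treated, a change of 0.71 ± 0.38, and 0.46 without the pair. It was also 0.46 without treated array 4, which read 7.33 against 5.44 to 6.05 on the other treated arrays. SLC25A13, the other such carrier, had 6.61 ± 1.31 untreated and 7.05 ± 0.29 treated, a change of 0.45 ± 0.45 with 5 untreated arrays, and -0.37 without the pair. The oxoglutarate carrier SLC25A11 of the same shuttle had -0.31 ± 0.21 (-0.42). SLC25A38, which imports glycine for haem synthesis, had 7.09 ± 0.49 untreated and 7.50 ± 0.27 treated, a change of 0.42 ± 0.23, and 0.15 without the pair. Of the glutathione carriers, SLC25A39 had 7.63 ± 0.67 untreated and 7.15 ± 0.40 treated, a change of -0.49 ± 0.29, and -0.68 without the pair, and SLC25A40 had 0.29 ± 0.22, and 0.017 without it.

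Other SLC25 members had wide errors or small values in Mia-PaCa-2. The dicarboxylate carrier SLC25A10 had 0.49 ± 0.54 and the ATP-magnesium/phosphate carrier SLC25A23 0.57 ± 0.54, and both had negative values, -0.24 and -0.071, without untreated arrays 4 and 5. Untreated array 5 alone turned both, to -0.11 and -0.042 without it. SLC25A48 had -0.51 ± 0.35 and 0.074 without the pair. The changes were -0.23 (-0.23) for the S-adenosylmethionine carrier SLC25A26, 0.19 (0.32) and 0.18 (0.0041) for the pyrimidine nucleotide carriers SLC25A36 and SLC25A33, -0.074 (-0.22) for the ornithine carrier SLC25A15 and -0.079 (0.0056) for the folate and FAD carrier SLC25A32. They were -0.073 (-0.24) for SLC25A24, a relative of SLC25A23 with the same substrates, 0.066 (-0.10) for SLC25A16, -0.055 (-0.16) for SLC25A35 and -0.025 (-0.17) for SLC25A17, which sits in the peroxisomal membrane.

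**Figure D3:**
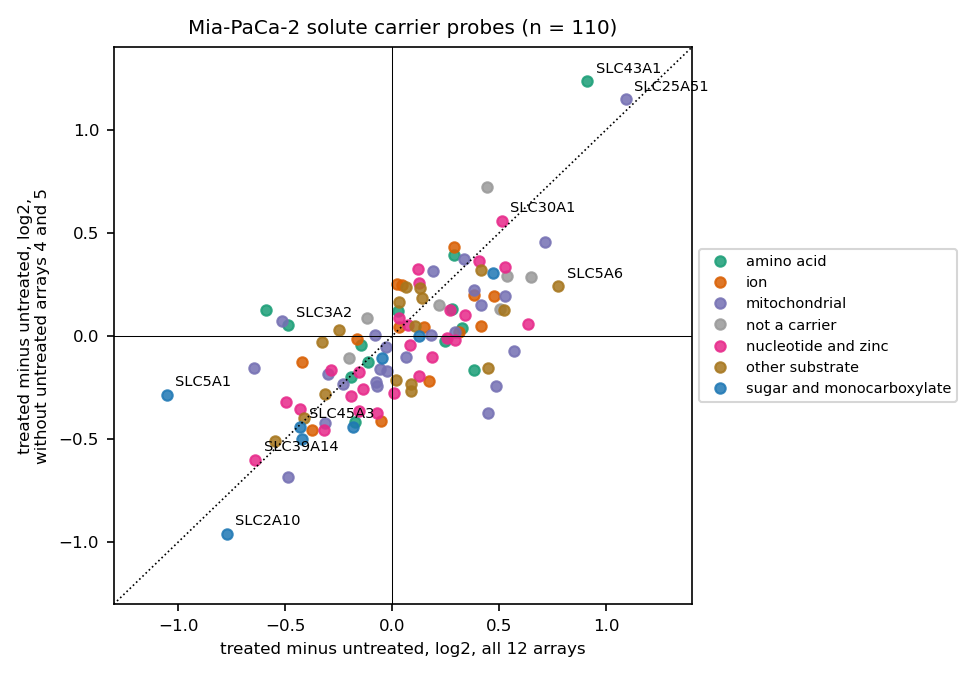
Treated minus untreated change (log2) of the 110 Mia-PaCa-2 member probes with all 12 arrays (horizontal axis) and without untreated arrays 4 and 5 (vertical axis), coloured by substrate group. The dotted line marks equal values. SLC30A1, SLC2A10, SLC45A3 and SLC39A14 lie near it, whereas SLC5A1 goes from -1.05 to -0.28 and SLC5A6 from 0.78 to 0.24.

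Carriers of other substrates had 12 of 17 positive changes in Mia-PaCa-2, with a median of 0.086 (0.027 and 9 of 17 without untreated arrays 4 and 5). An unadjusted p under 0.05 was reached by 2, beside 9.59% of all probes, and by 0 without those arrays. SLC5A6, the sodium-dependent importer of biotin and pantothenate, stood at 8.96, 8.46, 8.40, 7.07, 6.97 and 8.67 untreated and at 8.45, 8.77, 8.80, 9.16, 8.95 and 9.05 treated. Its untreated arrays 4 and 5 were far below the other 10 arrays. The change of SLC5A6 was 0.78 ± 0.32 (limma, adjusted p = 0.501), and 0.24 ± 0.18 without them. SLC48A1, which exports haem from endolysosomes, stood at 5.55, 5.98, 6.03, 5.63, 6.24 and 5.75 untreated and at 4.61, 5.57, 5.98, 4.84, 5.77 and 5.12 treated. Its 3 lowest treated arrays lay below all untreated ones, and the change of -0.55 ± 0.24 was -0.51 ± 0.26 without the pair.

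SLC67A1, which RefSeq also lists as SLC22A18, had 7.52 ± 0.35 untreated and 7.11 ± 0.27 treated, a change of -0.41 ± 0.20 (-0.40 without the pair), and the drug and proton exchanger SLC47A1 had 7.06 ± 0.73 untreated and 7.58 ± 0.20 treated, a change of 0.52 ± 0.28 (0.12 without it). The molybdate carrier SLC61A1 had 9.40 ± 0.95 untreated and 9.85 ± 0.25 treated, a change of 0.45 ± 0.35 (-0.16 without it). Of the rest, SLC10A3 had -0.32 (-0.28), the urate carrier SLC22A12 0.41 (0.32), SLC33A1, which brings acetyl-CoA into the endoplasmic reticulum, -0.33 (-0.028), and SLC67A2 -0.25 (0.027). The creatine carrier SLC6A8 had 0.14 (0.18), the organic anion carrier SLC22A7 0.13 (0.23), the noradrenaline carrier SLC6A2 0.10 (0.049) and the lysosomal cationic amino acid exporter SLC66A1 0.086 (-0.27). SLC71A2, SLC22A15, the GABA carrier SLC6A13 and the ascorbate carrier SLC23A2 had 0.088 (-0.23), 0.065 (0.24), 0.032 (0.16) and 0.018 (-0.21). SLC66A1 had -0.19 without untreated array 4 alone, which read 5.47 against 6.77 to 7.45 on the other untreated arrays.

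The symbol rule also took in 7 genes whose products are not carriers, each named after a neighbouring or interacting carrier. Of their 7 probes in Mia-PaCa-2 5 were positive, beside 51.2% of all probes, and 2 had an unadjusted p under 0.05, beside 9.59%. The median of 0.44 was 0.15 without untreated arrays 4 and 5, and 0 of 7 then had such a p. SLC2A1-DT, a transcript divergent from the glucose carrier gene SLC2A1, stood at 7.18, 6.60, 6.53, 5.58, 5.83 and 6.86 untreated and at 7.37, 6.97, 6.57, 6.86, 7.40 and 7.32 treated, with untreated arrays 4 and 5 its lowest. Its change of 0.65 ± 0.27 was 0.29 without the pair. SLC20A1-DT, beside the phosphate carrier gene SLC20A1, stood at 7.22, 6.84, 6.18, 6.45, 5.75 and 7.09 untreated and at 7.38, 6.99, 6.80, 7.30, 6.92 and 7.35 treated. Only untreated arrays 1, 2 and 6 reached the treated range, and the change of 0.53 ± 0.25 was 0.29 without the pair. The nuclear protein gene SLC4A1AP had 7.41 ± 0.81 untreated and 7.92 ± 0.27 treated, a change of 0.50 ± 0.31, but 0.13 without the pair. SLC2A4RG, a transcription factor named as a regulator of SLC2A4, had 0.44 ± 0.45 (0.72). The antisense transcripts SLC9A3-AS1 and SLC14A2-AS1 had 0.22 (0.15) and -0.12 (0.088), and SLC7A6OS, opposite SLC7A6, had -0.20 (-0.11). The sources used here do not say which strand these probes read.

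Of the genes that supply or control the carriers, and of other transporters, none passed the test in Mia-PaCa-2. Of 13 probes of the ion pumps that set up the gradients, for 8 genes, 10 were negative with and without untreated arrays 4 and 5. Over all probes 51.2% were positive, and 50.6% without that pair. The pump median was -0.25, and -0.11 without the pair, and in 0 the unadjusted p was under 0.05. The gene of the Golgi calcium and manganese pump ATP2C1 had several probes, and the brightest had -0.62 ± 0.31 (-0.092) and the others -0.26 ± 0.21 (-0.20) and 0.24 ± 0.22 (0.13). FXYD2, which modulates the sodium pump, had -0.39 ± 0.24 (-0.20), and the calcium pump ATP2A1 -0.30 ± 0.20 (-0.10). Among 21 probes of carrier chaperones and regulators 1 had an unadjusted p under 0.05, beside 9.59% of all probes. It was the brighter probe of the kinase WNK1, which controls the cation-chloride cotransporters, at -0.81 ± 0.35 (-0.19), and the other WNK1 probe had 0.11 ± 0.21 (0.081). The Rag GTPase RRAGA of amino acid sensing had -0.38 ± 0.23 (-0.55). BSG (basigin), which takes lactate carriers to the cell surface, had -1.01 ± 0.62 (-1.22), but -0.31 without treated array 4. Among 16 probes of other transporters, 1 had an unadjusted p under 0.05, that of the lipid transporter ABCA7 at -0.76 ± 0.28 (-0.64), beside the same share. ABCA3, which loads lipid into lamellar bodies of the lung, had 0.28 ± 0.21 (0.046) and the mitochondrial serine carrier SFXN1 0.38 ± 0.30 (0.018).

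In SK-MEL-28 no solute carrier passed the test either. By limma 0 of 67 member probes had an adjusted p under 0.05, as for 0% of 7973 probes, and the smallest adjusted p was 0.838 (0.458 with the replicate number as a block). An unadjusted p under 0.05 was reached by 4 member probes, beside 5.59% of all probes, 3 higher and 1 lower, where 3.06% of all probes were lower. With the block, which pairs same-numbered arrays, there were 7, beside 10.8%. There were 3 without treated arrays 3 and 5, beside 2.61%, and 8 without treated array 1, for which the share over all probes is not given here. The groups did not overlap for 3 member probes, beside 1.2% of all probes. Of the 67 changes 36 were positive (42.6% of all probes), with a median of 0.020 against -0.053 over all probes. Without treated arrays 3 and 5, 34 were positive (52.5% of all probes), and the medians were 0.011 and 0.014.

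SLC29A4, a carrier of adenosine and monoamines, had the smallest p of the SK-MEL-28 members. It stood at 6.46, 6.13, 6.40, 5.32 and 6.56 on untreated arrays 1 to 5 and at 6.98, 6.77, 7.49, 6.86 and 7.55 on treated arrays 1 to 5. All treated arrays lay above all untreated ones, and treated arrays 3 and 5 were the highest. Its change was 0.95 ± 0.27 (limma, adjusted p = 0.838, unadjusted 0.00459), and 0.69 ± 0.29 without treated arrays 3 and 5. SLC34A2, a sodium-phosphate cotransporter, stood at 6.46, 6.24, 6.51, 6.49 and 6.77 untreated and at 6.19, 5.06, 6.22, 5.89 and 6.01 treated, all treated arrays below all untreated ones. Its change of -0.62 ± 0.24 was -0.78 ± 0.27 without the pair and -0.41 without treated array 2, its lowest. The mitochondrial carrier SLC25A35 stood at 5.72, 5.998, 5.99, 5.78 and 5.80 untreated and at 6.34, 6.02, 6.21, 6.47 and 6.57 treated, again without overlap. Its change of 0.46 ± 0.17 was 0.41 ± 0.18 without the pair.

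The vitamin carrier SLC5A6 stood at 3.89, 5.89, 4.76, 5.59 and 5.69 untreated and at 5.64, 5.66, 7.56, 5.52 and 7.41 treated in SK-MEL-28. Only treated arrays 3 and 5 lay above the untreated range, and the change of 1.19 ± 0.52 was 0.44 ± 0.43 without them. SLC6A2, the noradrenaline carrier, had 6.16 ± 0.38 untreated and 6.90 ± 0.89 treated, a change of 0.73 ± 0.39 and 0.24, and SLC35D3 0.69 ± 0.42 and 0.084. SLC31A2 of the copper carrier family had 5.34 ± 0.41 untreated and 5.78 ± 0.53 treated, a change of 0.44 ± 0.29 and 0.11. Other members named by the same rule, the smallest p of each group, were SLC3A2 (-0.22 ± 0.17, and -0.23 without the pair), SLC7A14 (-0.23 ± 0.22 and -0.050), SLC5A1 (-0.37 ± 0.25 and -0.35) and the fructose carrier SLC2A5 (-0.27 ± 0.25 and -0.059). SLC2A4RG had 11.32 ± 0.76 untreated and 10.85 ± 0.75 treated, a change of -0.47 ± 0.42, but -0.030 without the pair, and SLC14A2-AS1 had -0.13 ± 0.16 (-0.010). The phosphate carrier SLC20A1, measured in this line only, had 0.12 ± 0.59 (-0.19).

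**Figure D4:**
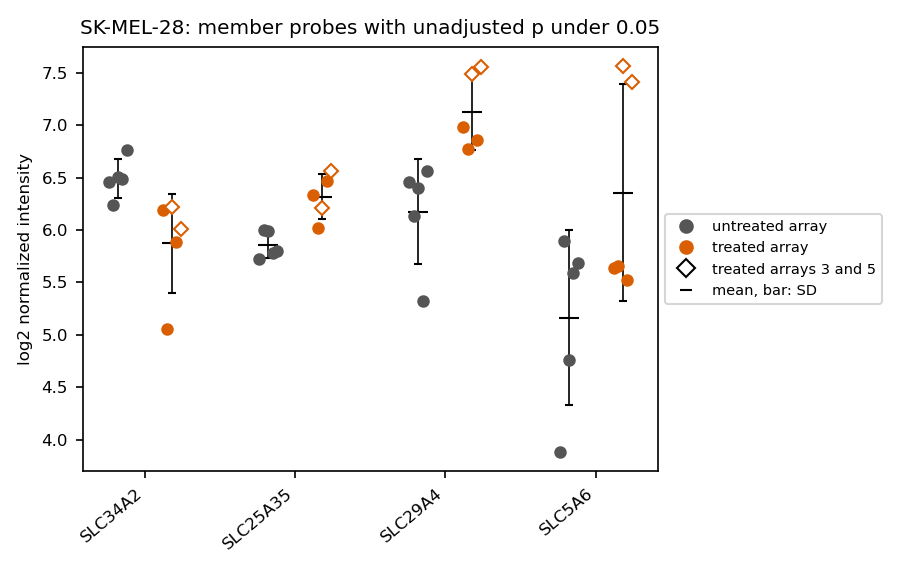
Log2 normalized intensity on every SK-MEL-28 array for the 4 member probes with an unadjusted p under 0.05. Grey points are untreated and orange points treated arrays, open diamonds are treated arrays 3 and 5, and bars are the mean ± SD. For SLC34A2, SLC25A35 and SLC29A4 the groups do not overlap, and for SLC5A6 only the diamonds lie above the untreated arrays.

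By group, SK-MEL-28 had medians of -0.17 for 7 amino acid probes (1 positive), 0.12 for 7 sugar and monocarboxylate probes (4 positive), 0.016 for 11 ion probes (6 positive) and 0.11 for 11 nucleotide and zinc probes (7 positive). It had 0.30 for 8 mitochondrial probes (6 positive) and 0.028 for 21 probes of other substrates (12 positive). Without treated arrays 3 and 5 these medians were 0.050, -0.050, 0.011, 0.084, 0.14 and 0.040, beside 0.014 over all probes. The phosphate carrier SLC25A3 had 0.61 ± 0.32 (0.19) by one probe and -0.11 ± 0.19 (0.10) by the other. SLC6A14 had -0.39 ± 0.43 (-0.36) and SLC67A2 -0.42 ± 0.30 (-0.25), which with SLC6A2 were the members whose p fell under 0.05 only with the replicate block, and none of the 3 passed after adjustment. Of 7 gradient pump probes, for 6 genes, 0 had a positive change, beside 42.6% of all probes. Without the pair 4 were positive, beside 52.5%. The pump median was -0.10, and 0.0028 without the pair. Among the regulators 1 probe of 8 had an unadjusted p under 0.05, beside 5.59% of all probes. It was that of RRAGC, a Rag GTPase like RRAGA, at 1.00 ± 0.33 (1.03), followed by the leucine sensor SESN2 at 0.21 ± 0.17 (0.090) and the kinase STK39 at -0.20 ± 0.18 (-0.16). All 4 probes of other transporters had negative changes with and without the pair, beside the same shares of positive changes over all probes. Of them the ABC transporter ABCD4, at -0.74 ± 0.38 (-0.58), had the smallest p. ABCA12 had -0.33 ± 0.39 (-0.074) and ABCC10 -0.13 ± 0.17 (-0.20). Of the pumps, ATP2C1 had -0.21 ± 0.29 (0.063) by its brightest probe and -0.64 ± 0.35 (-0.51) by another, ATP1B2 had -0.16 ± 0.28 (-0.022) and FXYD3 -0.10 ± 0.18 (-0.014).

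The other SK-MEL-28 members had no unadjusted p under 0.05 and are given by role, with the change without treated arrays 3 and 5 in parentheses. Among sugar carriers, the renal-type sodium-glucose cotransporter SLC5A2 had -0.30 (-0.44), the glucose-6-phosphate carrier SLC37A4 0.13 (0.43), SLC37A2 of the same family 0.12 (0.25), SLC16A5 0.39 (-0.050) and SLC45A3 0.22 (-0.013). The amino acid carriers SLC6A20, SLC1A7, SLC6A6 and the proline carrier SLC6A7 had -0.17 (0.050), 0.13 (0.056), -0.051 (0.11) and -0.080 (0.21). The ion carriers lay between -0.33 (-0.055) for the sodium-proton exchanger SLC9A8 and 0.24 (0.011) for the magnesium carrier SLC41A1, with -0.26 (-0.039) for SLC4A5, -0.21 (-0.89) for SLC8A3, -0.16 (0.11) for SLC9A5, 0.12 (0.33) for SLC26A2, 0.11 (0.065) for SLC5A5 and 0.016 (0.23) for SLC4A9. In the nucleotide and zinc group, the zinc carriers SLC30A7, SLC39A9, SLC30A2 and SLC30A9 had 0.22 (0.40), 0.12 (0.19), 0.11 (-0.56) and -0.12 (-0.069). The nucleotide sugar carriers SLC35C1 and SLC35A2 had -0.34 (-0.034) and -0.059 (-0.24), SLC35F6 had 0.081 (0.25), and SLC17A9 had -0.0079 (-0.019). The mitochondrial carriers SLC25A37, SLC25A40 and SLC25A28 had 0.36 (-0.12), 0.36 (0.38) and 0.24 (-0.041). SLC25A48 had -0.20 (-0.021) and the branched-chain amino acid carrier SLC25A44 0.020 (0.23). Single arrays turned some of these signs. For SLC25A40 untreated array 2 read 4.36 against 6.88 to 7.36 on the other untreated arrays, and the change was -0.20 without it. For SLC5A2 untreated array 3 read 8.66 against 4.99 to 5.71, and the change was 0.37 without it. For SLC26A2 untreated array 2 read 5.17 against 6.41 to 6.72, and the change was -0.16 without it. SLC41A1 had 0.66 without treated array 1, which read 4.78 against 6.49 to 7.11 on the other treated arrays.

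Among carriers of other substrates in SK-MEL-28, the GABA carriers SLC6A13 and SLC6A11 had -0.50 (-0.21) and -0.14 (0.040), the serotonin carrier SLC6A4 0.14 (0.10) and the vesicular monoamine carrier SLC18A1 -0.18 (-0.20). The lysosomal carrier SLC66A1 had 0.43 (0.18) and the lysosomal sialic acid exporter SLC17A5 0.062 (0.19). The organic anion and urate carriers SLC22A12, SLC22A8 and SLC22A7 had 0.31 (0.30), -0.28 (-0.20) and 0.028 (0.057), with 4 untreated arrays for SLC22A8. The fatty acid carriers SLC27A4 and SLC27A1 had 0.23 (0.066) and -0.26 (-0.23), and the ascorbate carrier SLC23A2 had -0.35 (-0.19). The remaining values were -0.36 (-0.13) for SLC22A31, 0.22 (-0.55) for SLC67A1, 0.14 (0.22) for SLC17A4, -0.11 (-0.037) for SLC10A3, 0.086 (-0.12) for SLC33A1 and 0.00087 (0.10) for SLC23A3. SLC67A1 had an unadjusted p under 0.05 without treated arrays 3 and 5. Single arrays far from their group also turned the signs of SLC6A4 (-0.045 without untreated array 2) and SLC23A3 (-0.11 without treated array 4).

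For the 40 member probes measured in both lines, the difference between the treatment changes was tested directly, and none passed. By limma 0 of 40 had an adjusted p under 0.05, as for 0% of 5321 probes. An unadjusted p under 0.05 was reached by 3, beside 5.47% of all probes, and by 4 with the replicate block within each line, beside 8.16%. It was reached by 1 without the 4 arrays that stood apart and by 5 without SK-MEL-28 treated array 1. The shares over all probes for these omissions are not given here, so those counts are no result about the carriers. The 3 with all arrays were SLC29A4, with -0.14 for the pancreatic and 0.95 for the melanoma line (difference 1.09 ± 0.35, limma adjusted p = 0.808), SLC35F5, with -0.49 and 0.36, and SLC45A3, with -0.43 and 0.22. SLC29A4 had -0.26 and 0.69 without the 4 arrays, SLC35F5 -0.32 and 0.27, and SLC45A3 -0.44 and -0.013. Of the 40 probes 25 had the same sign in both lines, and 20 without the 4 arrays. The share over all probes is not given here, so these counts are no result about the carriers.

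Several carriers that lay far from their group on the arrays that stood apart had levels there nearer to those of the other line, although levels were normalized separately in each line. SLC5A1 read 8.18 to 8.46 on Mia-PaCa-2 untreated arrays 4 and 5, 5.21 to 6.38 on the remaining Mia-PaCa-2 arrays and 7.99 to 9.18 on the 8 remaining SK-MEL-28 arrays. SLC6A20 read 7.64 to 7.87 on that pair, 5.24 to 6.26 on the remaining Mia-PaCa-2 arrays and 8.08 to 8.39 on the 8 remaining SK-MEL-28 arrays. SLC5A6 read 6.97 to 7.07 on the Mia-PaCa-2 pair and 7.41 to 7.56 on SK-MEL-28 treated arrays 3 and 5. Its values on the other arrays were 8.40 to 9.16 in the first line and 3.89 to 5.89 in the second. Not every carrier shifted in both lines. For SLC5A1 the pair lay 2.31 above the rest of its group in Mia-PaCa-2 and shifted by -0.062 in SK-MEL-28. For SLC3A2 these shifts were 1.62 and 0.010. For 30 of the 40 probes the shift of the pair against the rest of its group had opposite signs in the 2 lines, and over the 40 probes the shifts correlated with r of -0.60. That correlation runs over probes and carries no test. The same count and correlation over all probes are not given here, so they describe the arrays and are no result about the carriers. The part of these arrays in each treatment change was not tested beyond the values given without them.

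**Figure D5:**
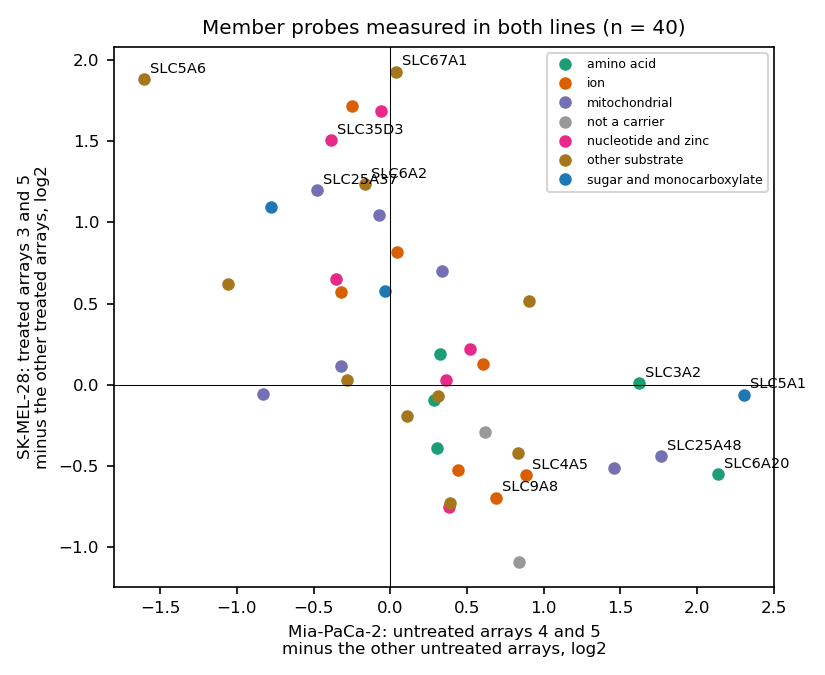
Shift on the arrays that stood apart, for the 40 member probes measured in both lines. The horizontal axis is the mean of Mia-PaCa-2 untreated arrays 4 and 5 minus the mean of the other 4 untreated arrays, and the vertical axis the mean of SK-MEL-28 treated arrays 3 and 5 minus the mean of the other 3 treated arrays (both log2). Points lie mostly in the upper left and lower right, 30 of 40 with opposite signs, with SLC5A6 at the upper left and SLC6A20 at the lower right. The share over all probes is not given.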

How the data were processed

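Total RNA was labelled with biotin and hybridized to CodeLink human whole genome arrays read with an arrayWoRx scanner, per the labels' protocols and the design text. Values of 2 kinds were deposited. The authors' normalized intensities came as one table of both lines, used here on the log2 scale, and the intensities of each array, not scaled between arrays, came as separate files and served as an alternative. How background was corrected, how probes were filtered and by what method values were normalized is not stated in those sources. The sorted log2 values of the arrays of a line differed by at most 0.016 at any percentile, so a low reading such as 2.48 recurs on different arrays. The lines hold different probes and were set on their scale apart, so no test compares levels between lines. The files give no detection flag, so no probe was called above or below background, and the number of arrays limits the precision.

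Probes were named from the platform annotation, in which 8051 of 14257 had 1 symbol, 400 several and 5806 none. Members were grouped by SLC family number. Treated minus untreated was fitted in each line with limma 3.58.1 (lmFit, eBayes; R 4.3.3) on every probe with at least 3 values a group, with Benjamini-Hochberg adjustment over all probes tested and a threshold of 0.05. The difference between lines was a contrast over all 22 arrays. The fit was tested on simulated data. Tables were handled in Python 3.11.15 with pandas 2.3.3. The members and lists were chosen with earlier results of these data known. Named were 23 genes fixed by role where measured, in each group the 4 genes with the smallest p in Mia-PaCa-2 and the 2 with the smallest in SK-MEL-28, genes whose probes disagreed, and the 3 smallest p per partner list. Where a gene had several probes, the highest mean decided whether it was named, and the other probes are given beside it. Single far arrays were sought among all member probes.

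Titles share replicate numbers between treated and untreated arrays. The descriptions of all 6 Mia-PaCa-2 untreated arrays repeat the number 1, so the titles alone give their numbers, and the labels of the 4 arrays that stood apart were not checked against another source. Deviations from the group means of same-numbered arrays correlated at 0.60, 0.36, 0.40, 0.31 and 0.25 in SK-MEL-28. Untreated arrays 3 and 5 there correlated more with a treated array of another number. In Mia-PaCa-2 the correlations ran from -0.19 to 0.44, and only untreated arrays 3 and 6 correlated most with their own number. The sources used here do not say that shared numbers pair arrays, so the changes, SE and p-values come from fits without pairing in both lines. Values with the replicate block are given as an alternative. Alternatives were the omission of the 4 arrays that stood apart, each replicate left out, median scaling or quantile normalization of the array files, a filter on dim probes, a pseudocount of 16, complete probes only, the replicate block, array weights and a trended robust variance. The replicate block together with the omission of the arrays that stood apart was chosen after seeing the data, as was the block within each line for the difference between lines.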

Additional observations from a re-analysis of the deposited data

Results flagged for a closer look

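Single arrays lay far from the rest of their group for 29 of the 354 sets of member-probe values examined by Dixon's ratio. The nominal rate of that ratio is about 1 in 20. The share flagged over all probes is not given here, so the count is no result about the carriers. In Mia-PaCa-2 treated cells, SLC25A48 read 5.32 on array 4 against 5.999 to 6.38, and the change was -0.38 without it. SLC4A4 read 4.29 on array 5 against 5.41 to 5.94, and the change was 0.51 without it. SLC9A3-AS1 read 6.28 on array 1 against 5.80 to 5.97, and the change was 0.15 without it. SLC5A5 read 6.77 on array 5 against 5.87 to 6.13, and the change was -0.085 without it. SLC9A8 read 6.81 on array 3 against 7.03 to 7.11, and the change was 0.066 without it. One SLC38A1 probe read 4.34 on array 1 against 5.33 to 5.73, and the change was 0.012 without it. SLC39A14 read 3.10 on array 1 against 5.10 to 6.17, and the change was -0.21 without it. SLC22A12 read 8.11 on array 4 against 6.09 to 6.70, and the change was 0.12 without it. SLC45A1 read 9.72 on array 4 against 5.66 to 6.20, and the change was -0.15 without it. SLC1A7 read 9.25 on array 4 against 5.27 to 5.84, and the change was -0.36 without it. SLC25A12 read 7.33 on array 4 against 5.44 to 6.05, and the change was 0.46 without it. SLC35B2 read 2.48 on array 6 against 5.44 to 6.47, and the change was 0.16 without it. In Mia-PaCa-2 untreated cells, SLC43A1 read 2.48 on array 3 against 5.04 to 5.65, and the change was 0.44 without it. SLC38A12 read 3.57 on array 4 against 5.44 to 6.42, and the change was -0.025 without it. SLC35A1 read 5.28 on array 4 against 6.60 to 7.01, and the change was -0.33 without it. SLC25A51 read 2.48 on array 2 against 5.65 to 6.85, and the change was 0.47 without it. SLC25A10 read 3.57 on array 5 against 6.65 to 7.80, and the change was -0.11 without it. SLC66A1 read 5.47 on array 4 against 6.77 to 7.45, and the change was -0.19 without it. SLC25A23 read 2.48 on array 5 against 5.77 to 6.44, and the change was -0.042 without it. In SK-MEL-28 treated cells, SLC17A4 read 5.27 on array 3 against 5.59 to 5.69, and the change was 0.21 without it. SLC41A1 read 4.78 on array 1 against 6.49 to 7.11, and the change was 0.66 without it. SLC23A3 read 6.63 on array 4 against 5.97 to 6.14, and the change was -0.11 without it. SLC34A2 read 5.06 on array 2 against 5.89 to 6.22, and the change was -0.41 without it. In SK-MEL-28 untreated cells, SLC25A40 read 4.36 on array 2 against 6.88 to 7.36, and the change was -0.20 without it. SLC5A2 read 8.66 on array 3 against 4.99 to 5.71, and the change was 0.37 without it. One SLC25A3 probe read 9.36 on array 3 against 9.52 to 9.55, and the change was -0.14 without it. SLC26A2 read 5.17 on array 2 against 6.41 to 6.72, and the change was -0.16 without it. SLC10A3 read 6.02 on array 4 against 6.68 to 6.86, and the change was -0.26 without it. SLC6A4 read 5.09 on array 2 against 5.84 to 6.11, and the change was -0.045 without it. The sign of the change turned without the far array for 14 of the 29, and the limma adjusted p-values ran from 0.394 to 1.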

How the results depend on the processing

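No member passed an adjusted p of 0.05 by limma in either line, or in the difference between lines, under any setting run. The smallest adjusted p ranged from 0.458 to 1.00 in SK-MEL-28 and from 0.249 to 0.884 in Mia-PaCa-2. The unadjusted count in Mia-PaCa-2 was 10, and 6 without untreated arrays 4 and 5. Leaving out single arrays gave 3 to 8 in SK-MEL-28, 4 to 16 in Mia-PaCa-2 and 2 to 5 for the difference between lines. The shares over all probes for these omissions are not given here, so the ranges are no result about the carriers. The difference between lines had 3, 4 with the replicate block within each line, and 1 with array weights or without the arrays that stood apart. The replicate block, which pairs same-numbered arrays, changed no adjusted call, and it moved the SK-MEL-28 unadjusted count from 4 to 7.

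Without the arrays that stood apart, the median change in Mia-PaCa-2 was 0.15 for the genes that are not carriers and -0.074 for nucleotide and zinc carriers, and that of sugar carriers in SK-MEL-28 was -0.050. With the replicate block as well, these were 0.17, -0.065 and -0.052, and the mitochondrial medians were 0.096 in SK-MEL-28 and -0.092 in Mia-PaCa-2. The Mia-PaCa-2 amino acid median was -0.060 without the lowest 25% of probes. Signs turned without the arrays that stood apart for SLC20A1 (-0.19) and one SLC25A3 probe (0.097) in SK-MEL-28, and for SLC3A2 (0.051), SLC6A20 (0.12), SLC35B1 (-0.28) and SLC45A2 (-0.00075) in the other line. With the replicate block as well they turned for SLC17A9 (0.0048 and -0.020 by its probes), SLC35B1 (-0.37) and SLC8B1 (-0.074) in Mia-PaCa-2. For the melanoma line they then turned for one SLC25A3 probe (0.055), SLC14A2-AS1 (0.039), SLC2A4RG (0.14) and SLC31A2 (-0.0062). Median scaling turned one SLC25A3 probe (0.075) and SLC35B1 (-0.0033) in Mia-PaCa-2, and array weights turned the same probe (0.077), SLC35B1 (-0.21) and SLC45A2 (-0.039). The cause was not tested.

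Leaving out single arrays, in Mia-PaCa-2 the median of all members ran from 0.015 to 0.11, that of amino acid carriers from -0.13 to 0.063, of mitochondrial carriers from -0.042 to 0.13, of other substrates from -0.023 to 0.14, of nucleotide and zinc carriers from -0.00037 to 0.14 and that of the genes that are not carriers from 0.15 to 0.50. The brighter SLC25A3 probe ran from -0.10 to 0.11 there and the other from -0.81 to -0.45. SLC35B1 ran from -0.15 to 0.14. The brighter SLC38A1 probe ran from -0.55 to 0.054 and the other from -0.31 to 0.012. In SK-MEL-28 the median of all members ran from -0.038 to 0.045, that of ion carriers from -0.16 to 0.057, of nucleotide and zinc carriers from -0.0018 to 0.13, of mitochondrial carriers from 0.089 to 0.43, of other substrates from -0.063 to 0.038 and of sugar carriers from -0.065 to 0.18. SLC20A1 ran from -0.19 to 0.54 there. The brighter SLC25A3 probe ran from 0.38 to 0.77 in that line and the other from -0.22 to 0.0053.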
